A study of Caenorhabditis elegans with 66 samples.

Results

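The far right part of the large piRNA cluster of Caenorhabditis elegans chromosome IV was described across genotypes and ages. It was taken as every annotated piRNA (a name that begins with 21ur-) of the deposited table with coordinates that starts at position 16000000 or beyond on chromosome IV, except 21ur-7611, 21ur-6881, 21ur-669, 21ur-5504 and 21ur-1. The rule uses position and name, not counts, and it found 2663 piRNAs, of 11311 annotated piRNAs of chromosome IV in that table and 17114 piRNAs in the deposited count table. Small RNA was sequenced from whole worms collected as L4 larvae at 48 h or as gravid adults at 72 h. Besides wild type (N2), 6 mutants were sequenced, labelled snpc-1.3(-), snpc-1.2(-), snpc-1.2(-); snpc-1.3(-), prg-1(-), mut-16(-) and hrde-1(-). The sample titles call the snpc alleles null, and the labels give no allele names. The libraries came in 3 sets with wild type in each. The labels name sets A and B; the third has no set letter, is marked RT in the descriptions and is called set C here. Set A holds snpc-1.3 and snpc-1.2, set B holds the snpc-1.2; snpc-1.3 double mutant, prg-1, mut-16 and hrde-1, and of set C only wild type was used. Each set, genotype and age has 3 libraries. The labels do not say that these came from separate cultures, so the spread between them may be technical.

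C. elegans piRNAs are short germline RNAs that begin with U and are bound by the Argonaute protein PRG-1, which needs them to find foreign transcripts. Each one is transcribed from its own small unit, and most of these units lie in clusters on chromosome IV. Their transcription uses a relative of the SNAPc complex, which otherwise serves small nuclear RNA genes; snpc-1.2 and snpc-1.3 are duplicates of the gene for its SNAPC1 subunit, per the title of the study. MUT-16 organises the amplification of secondary small RNAs, and HRDE-1 is a nuclear Argonaute that carries them. Hermaphrodites make sperm as L4 larvae and oocytes as adults. In whole animals, fewer cells that make a piRNA and less of that piRNA per cell cannot be told apart.

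The piRNAs of the region are all 21 bases long. The sequences below are the 6 that were most abundant in wild type of sets A and B, followed by 4 others. Those 4 were lower in adults or lost in a mutant and carry the comparisons that follow. Each sequence is written 5′ to 3′ as DNA with its first base, the T that is U in the RNA, in capitals.
21ur-2235: Ttagatagagactgcatgatt
21ur-4532: Tgggacattaaaaagtgattt
21ur-5410: Tctttttggagtgtggtcatc
21ur-2290: Taggatctctgctctgttgag
21ur-603: Tgtttcgaacttcaatgcagg
21ur-2721: Tttagatcagtgctgtgcggc
21ur-119: Tgggtttaggcgataatgact
21ur-1660: Tatcacagacttagcagtact
21ur-7073: Tagaacgtttggaaaattttt
21ur-5880: Ttttatcgaaggaaacccatt
In the WBcel235 build, 21ur-2235 lies at chrIV:16629788-16629808, 21ur-4532 at chrIV:16119421-16119441 and 21ur-1660 at chrIV:16977377-16977397, all on the plus strand and outside protein-coding genes. 21ur-5410 at chrIV:16073793-16073813 and 21ur-5880 at chrIV:16676506-16676526 are on the minus strand, also outside genes. 21ur-2290 at chrIV:16231442-16231462 lies in an intron of hpa-1 on the strand of that gene, and 21ur-603 lies likewise in an intron of uroc-1.

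The first piRNA of the region started at 16000882 and the last ended at 17489571. It held 1265 piRNAs on the plus strand and 1398 on the minus strand. Of the 2663, 2520 began with T (94.6%), against 8507 of the 8648 other annotated chromosome IV piRNAs (98.4%). The 143 that began with another base held 8.45% of the counts of the region in wild type of sets A and B, so they were not confined to rare loci. G and C made up 32.9% of the bases of the region's piRNAs and 33.4% of those of the other chromosome IV piRNAs. By the annotation, 2200 lay outside protein-coding genes (82.6%), 410 in introns and 53 in exons. Those inside genes touched 61 genes, led by jac-1 with 108 piRNAs. Density varied along the region and was highest in the first window and lowest in the last. Successive windows of 250000 bases held 824, 382, 647, 433, 358 and 19 piRNAs, and the median distance from one start to the next was 225 bases.

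Most of the region's piRNAs are rare. In wild type of sets A and B, the 10 most abundant held 13.7% of the region's counts and the 100 most abundant held 49.9%. Of the 2663 piRNAs, 1618 passed the filter on low counts (60.8%), against 8512 of 17114 over the whole table (49.7%). The other 1045 held 0.815% of the region's counts in wild type of sets A and B, and 2 of them had no count in any library used. Levels are given below as scaled CPM, which are piRNA counts scaled between libraries by the TMM method. The columns count piRNAs alone, so this scale is relative to other piRNAs and not to all small RNA. piRNA counts per library ranged from 3167 in prg-1 at 48 h to 2276260 in mut-16 at 72 h.

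One wild-type library stood apart before any comparison. Replicate 3 of set C at 72 h had 9912 piRNA counts, of which 10.7% lay in the region (95% Wilson interval 10.1 to 11.3, counting error only), where the other 8 wild-type libraries at 72 h ranged from 20.4% to 21.3%. Only 401 of the region's piRNAs had a count in it. The windows from 13 to 14, 14 to 15 and 15 to 16 Mb held 3.96%, 19.4% and 13.3% of its counts. In the double mutant of set B at 72 h these windows held 3.14% to 3.41%, 21.4% to 23.9% and 14.4% to 15.9%. There the region held 9.63% to 10.3%, and 485 to 542 of its piRNAs had a count. Whether this library carries the right label was not tested. Set C also differed in single piRNAs. 21ur-2235 had 395, 407 and 0 scaled CPM at 72 h and 132, 236 and 204 at 48 h in set C, whereas in sets A and B it ranged from 14849 to 22643 at 72 h and from 2435 to 3972 at 48 h. Mutants were therefore set against wild-type libraries of their own set only.

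Wild-type adults drew a slightly smaller share of their piRNA counts from the region than L4 larvae. The share was 19.8% ± 3.44 in adults and 21.9% ± 0.156 in L4 larvae (SD, n = 9 each), a difference of -2.14 percentage points (exact permutation test within sets, two-sided, p = 0.00025, adjusted p = 0.00325 over 13 comparisons). Without the library that stood apart, the share at 72 h was 20.9% ± 0.296 (n = 8), and the difference was -0.965 points (exact permutation p = 0.00025). Within sets, the difference was -1.05 points in set A, -1.03 in set B and -4.33 in set C, and 3 libraries against 3 cannot give an exact p below 0.1. Leaving out replicate 1 or replicate 3 of set C at 48 h gave differences of -2.13 and -2.11 points with exact permutation p of 0.05125 and 0.053. Over the same libraries, without the one that stood apart, the neighbouring window from 15 to 16 Mb held 28.7% ± 0.533 at 72 h (n = 8) and 26.6% ± 0.231 at 48 h (n = 9). That window leaves out no annotated piRNA, whereas 4 of the named exceptions start in the region and are not in its share. With them, the region's difference over all wild-type libraries was -1.97 points (exact permutation p = 0.0005).

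Of the 12 comparisons of a mutant with wild type, those of the snpc-1.2; snpc-1.3 double mutant and of prg-1 gave the widest differences in the region's share. In prg-1 the region held 6.22% ± 0.312 at 48 h and 5.03% ± 0.666 at 72 h, and in the double mutant 9.73% ± 0.169 and 10.1% ± 0.369, against 22.0% ± 0.151 and 20.9% ± 0.425 in wild type of set B at the same ages (SD, n = 3 each). In snpc-1.2 adults it held 18.3% ± 0.586, against 20.8% ± 0.0836 in wild type. In the other comparisons it differed from wild type by no more than 1.18 points. The groups did not overlap in 10 of the 12, which gives the smallest exact p of 0.1 and an adjusted p of 0.118; for snpc-1.2 at 48 h and mut-16 at 72 h the exact permutation p was 0.2.

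**Figure D1:**
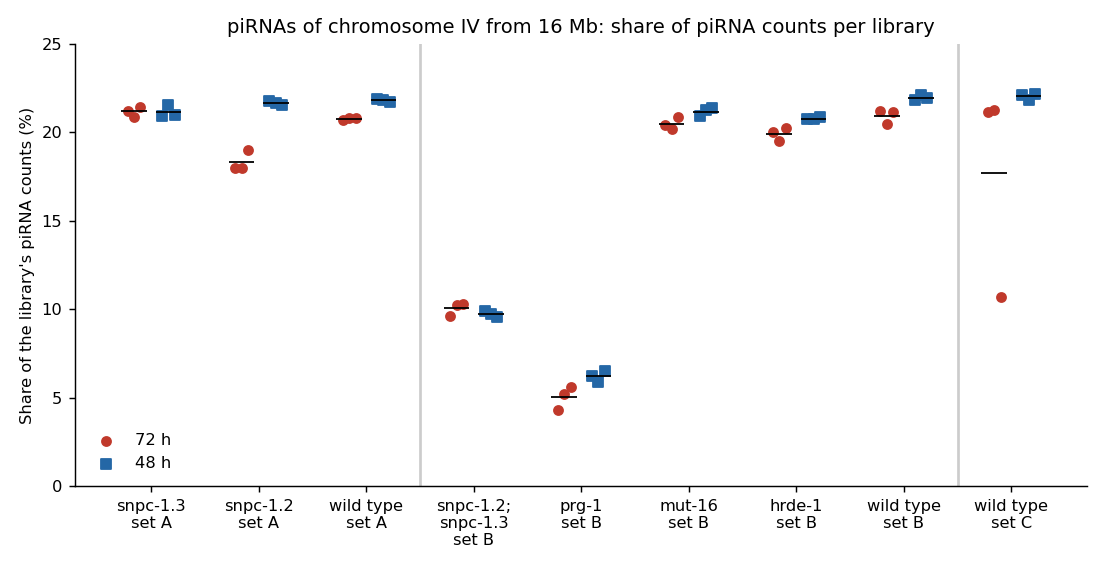
Share of each library's piRNA counts that lies in the region (percent, vertical axis), by genotype and age; points are libraries and bars their mean. The double mutant and prg-1 libraries lie between 4.30% and 10.3%, and 1 wild-type library of set C at 72 h lies at 10.7%.

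The age of the animals changed the level of most of the region's piRNAs, in both directions. In wild type of the 3 sets, 596 of the 1618 tested were higher and 801 lower at 72 h than at 48 h (edgeR quasi-likelihood test, Benjamini-Hochberg adjusted p below 0.05 over all 8512 piRNAs tested). Of all piRNAs 83.8% were called, 41.4% higher and 42.3% lower, against 36.8% and 49.5% of the region's. The region leaned towards L4. Its median log2 change was -0.69, against 0.07 over all piRNAs, and the distance between these medians was -0.76 under TMM, -0.77 with DESeq2 size factors and -0.76 with the sum of piRNA counts as scaling, although those scalings moved the median of all piRNAs to -0.26 and -0.32. With a change of at least 2-fold added, 758 were enriched at 48 h (46.8%, against 39.7% of all piRNAs), 519 at 72 h (32.1%, against 36.5%) and 341 were in neither class. Set A alone and set B alone put 1164 of the 1618 in the same class and none of them in opposite classes, and their changes had a Pearson r of 0.93 across the 1618 piRNAs, which are not independent replicates.

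The 6 piRNAs of the region most abundant in wild type of sets A and B were all higher in adults. 21ur-2235 had a lowest, median and highest value of 0, 15140 and 22643 scaled CPM at 72 h, against 132, 2808 and 3972 at 48 h. The log2 change was 1.90 ± 0.23 (SE; edgeR adjusted p = 3.3e-12), and only the low values of set C make the ages overlap. 21ur-5410 had 74.7, 8221 and 13084 scaled CPM at 72 h, against 1280, 1523 and 3771 at 48 h, with the lowest adult value again in the library that stood apart. It changed by 2.10 ± 0.27 on the log2 scale (edgeR adjusted p = 4.5e-11). 21ur-4532, 21ur-2290, 21ur-2721 and 21ur-603 changed by 2.13, 1.96, 1.28 and 0.84 on the log2 scale.

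Among piRNAs called higher in adults by at least 2-fold and with no overlap between the ages within any set, the most abundant was much rarer. 21ur-4640 had 73.5, 174.5 and 234.6 scaled CPM at 72 h, against 21.5, 40.6 and 68.8 at 48 h, a log2 change of 1.89 ± 0.21 (edgeR adjusted p = 4.5e-13). Only 5 piRNAs of the region met these requirements in this direction (0.309% of those tested, beside 1.03% of all piRNAs), and 501 met them in the other (31.0%, beside 24.7%). In the library that stood apart, piRNAs enriched at 72 h in set B held 19.8% of the region's counts (95% Wilson interval 17.5 to 22.3), against 68.3% and 71.6% in replicates 1 and 2 of set C at 72 h. Its part in these 2 numbers was not tested. 21ur-2592 had 37.3, 193 and 337 scaled CPM at 72 h, against 1373, 2167 and 2859 at 48 h, so the ages did not overlap in any set. This was a log2 change of -3.43 ± 0.23 (edgeR adjusted p = 8.1e-25). 21ur-1660 had 37.3, 342 and 666 at 72 h, against 408, 2723 and 3447 at 48 h, and its log2 change was -2.64 ± 0.21 (edgeR adjusted p = 1.5e-20). In adults 21ur-4621, 21ur-52, 21ur-815 and 21ur-2332 changed by -2.91, -2.13, -1.65 and -1.22 on the log2 scale.

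Both classes occurred in every window of the region, but in unequal proportion. In the first window, from 16000000, 43.1% of 513 tested piRNAs were enriched at 48 h and 38.4% at 72 h, and the median log2 change was 0.05. In the window from 17000000, 61.2% of 219 were enriched at 48 h and 23.3% at 72 h, and the median was -2.21. The 3 windows between them, in order of position, had medians of -1.22, -0.34 and -0.60. The last window had only 8 tested piRNAs, of which 3 were enriched at 48 h and 4 at 72 h. Strand made little difference, with 47.1% of plus-strand and 46.6% of minus-strand piRNAs enriched at 48 h. Of piRNAs in introns 51.8% were enriched at 48 h, against 46.0% outside genes. Of the 519 that overlapped another of the region on the same strand 37.6% were enriched at 48 h and the median log2 change was 0.09, against 51.2% and -1.28 for the other 1099. These are descriptions over loci, without a test.

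**Figure D2:**
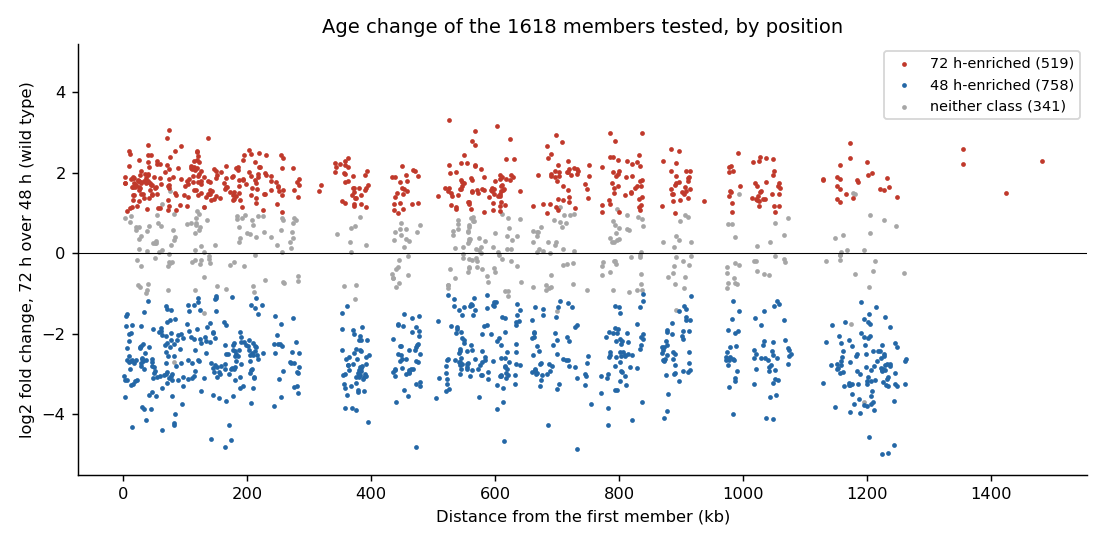
Log2 change in wild type, 72 h over 48 h (vertical axis), of the 1618 tested piRNAs of the region against their distance in kb from the first of the region (horizontal axis); each point is a piRNA, coloured by class. The classes lie side by side along most of the region, and those enriched at 48 h make up 61.2% of the tested piRNAs in the window from position 17000000.

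Neighbours that overlapped on the same strand shared their age class, while neighbours farther apart shared it about as often as the class frequencies give. Overlapping pairs share most of their bases, and how the authors assigned reads of overlapping loci is not stated, so their values may not be independent. The sequences of 2 such pairs, chosen after their values were seen, show the overlap, with the shared bases in capitals.
21ur-4305: ttgtTTTGTCGCTTTAGGTTC
21ur-7619: TTTGTCGCTTTAGGTTCaatt
21ur-5410: TCTTTTTGGAGTGTGGTCATc
21ur-6041: tTCTTTTTGGAGTGTGGTCAT
21ur-4305 and 21ur-7619 start 4 bases apart, share 17 bases and changed by -2.72 and -2.80 on the log2 scale. 21ur-5410 and 21ur-6041 start 1 base apart, share 20 bases and changed by 2.10 and 1.84. Among 148 next neighbours that overlapped on the same strand, all 98 pairs with both piRNAs classed were in the same class, and their log2 changes had a Pearson r of 0.95. Among neighbours at least 100 and under 1000 bases apart, 387 of 717 classed pairs were in the same class (54.0%), where the class frequencies alone give 51.8%, and r was 0.05 over 1142 pairs. 21ur-1706 and 21ur-6464 lie 288 bases apart on one strand, and the first was enriched at 72 h (log2 change 1.91) and the other at 48 h (-2.13).

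L4 larvae without snpc-1.3 had lost most of the counts of the L4 piRNAs of the region and had more of the adult ones. Of the 1618 tested piRNAs, 619 were higher and 755 lower in snpc-1.3 than in wild type at 48 h (edgeR adjusted p below 0.05), beside 77.3% of all piRNAs called (38.6% higher and 38.7% lower). To read this against age, the classes were taken from wild type of set B, which shares no library with set A. There 717 of the region's piRNAs were enriched at 48 h and 514 at 72 h, beside 37.6% and 35.7% of all piRNAs. Of those 717, 689 fell in snpc-1.3 (96.1%, against 93.4% of that class over all piRNAs), with a median log2 change of -4.07. Of the 514, 498 rose (96.9%, against 85.4%), with a median of 2.19. Across the 1618 piRNAs the mutant's log2 change and the wild-type age change of set B had a Pearson r of 0.91.

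Shares of the region's counts, which need no scaling between libraries, give the same picture. The piRNAs enriched at 48 h held 4.42% ± 0.327 of the region's counts in snpc-1.3 at 48 h, against 53.5% ± 4.48 in wild type, and those enriched at 72 h held 73.0% ± 0.852 against 23.8% ± 4.13 (SD, n = 3 each; the groups did not overlap, exact permutation p = 0.1, the smallest possible, adjusted p = 0.109 over 12 tests). In summed raw counts, which unlike the shares depend on the depth of each library, these were 5.52% and 202% of the wild-type means.

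Single piRNAs had wide gaps between the groups. 21ur-5880 had 27.3, 2.64 and 13.6 scaled CPM in snpc-1.3 at 48 h, against 2249, 1585 and 2404 in wild type. The log2 change was -7.10 ± 0.45 (edgeR adjusted p = 2e-25), and the mutant libraries held 12, 1 and 6 counts of it. 21ur-1660 had 202, 214 and 176 in snpc-1.3, against 3447, 2723 and 3330 in wild type, a log2 change of -4.00 ± 0.37 (edgeR adjusted p = 3.9e-17). In the other direction, 21ur-2235 had 13867, 19225 and 17660 scaled CPM in snpc-1.3 at 48 h, against 2808, 3666 and 2820 in wild type, and every mutant library was above every wild-type one. Its log2 change was 2.45 ± 0.39 (edgeR adjusted p = 4.4e-08), and wild-type adults of set A had 14849, 15140 and 17159. 21ur-5410 had 6033, 7173 and 7138 in snpc-1.3, against 1368, 1480 and 1455 in wild type, a log2 change of 2.24 ± 0.46 (edgeR adjusted p = 1.4e-05). 21ur-4532, 21ur-2290, 21ur-603 and 21ur-2721 rose by 2.41, 2.49, 1.53 and 1.56 on the log2 scale, and 21ur-7073, 21ur-52, 21ur-2592 and 21ur-815 changed by -3.04, -2.87, -7.07 and -2.22.

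In adults, loss of snpc-1.3 changed fewer piRNAs of the region, and all 192 that were called fell (of all piRNAs 9.39% were called and 9.26% were called lower; DESeq2 called 170). Every one of them was among the 717 enriched at 48 h (26.8%, against 24.2% of that class over all piRNAs). The count depended on single libraries and was 117 without snpc-1.3 replicate 2, 115 without snpc-1.3 replicate 3 and 112 without wild-type replicate 3. Of all piRNAs these runs called 535, 524 and 511, and DESeq2 called 742. 21ur-1660 had 168, 120 and 192 scaled CPM in snpc-1.3 at 72 h, against 425, 282 and 600 in wild type, with no overlap. Its log2 change was -1.44 ± 0.35 (edgeR adjusted p = 0.0018), and it was -1.13 and not called without wild-type replicate 3 (edgeR adjusted p = 0.059). 21ur-10383 had 84.2, 107 and 93.5 in snpc-1.3, against 234.5, 197 and 294 in wild type, a log2 change of -1.34 ± 0.33 (edgeR adjusted p = 0.0022). The adult piRNA 21ur-2235 had 17518, 17845 and 19366 in snpc-1.3, against 14849, 15140 and 17159 in wild type, and was not called (log2 difference 0.22 ± 0.37, edgeR adjusted p = 0.85). The piRNAs enriched at 48 h held 3.27% ± 0.0857 of the region's counts in snpc-1.3 at 72 h, against 7.09% ± 1.32 in wild type (exact permutation p = 0.1, n = 3 each).

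The effect of snpc-1.3 loss differed between the ages for 744 piRNAs of the region (edgeR test of the difference of the effects, adjusted p below 0.05), beside 39% of all piRNAs. The difference was positive for 295 (12.9% of all piRNAs) and negative for 449 (26.2% of all piRNAs). With DESeq2 size factors that split was 359 and 228, beside 1375 and 1100 of all 8512 piRNAs. With the sum of piRNA counts it was 359 and 369, beside 1373 and 1771.

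Loss of snpc-1.2 lowered the adult piRNAs of the region at both ages. At 48 h, all 764 piRNAs called were lower in snpc-1.2 than in wild type, beside 43.6% of all piRNAs called and 43.5% called lower. The median log2 change of the region was -0.86, close to the -0.83 of all piRNAs. The sum of piRNA counts as scaling moved the median of all piRNAs to 0.14 and gave 23 higher and 445 lower, and DESeq2 size factors moved it to 0.42 and gave 108 and 417. DESeq2 gave 96 and 396, and 457 piRNAs were called without snpc-1.2 replicate 3. Of all piRNAs the sum called 266 higher and 2222 lower, DESeq2 size factors 783 and 2063, and DESeq2 656 and 1947. The run without that replicate called 2321 of all piRNAs. Same-numbered libraries deviated together here. A fit with the replicate number as a block called 893 of the region, all lower, beside 4166 of all piRNAs. Of the 514 piRNAs enriched at 72 h in wild type of set B, 488 fell (94.9%, against 81.8% of that class over all piRNAs), with a median log2 change of -4.65. Of the 717 enriched at 48 h, 93 were lower (13.0%, against 11.4%), and their median of -0.58 was above that of all piRNAs.

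21ur-4532 had 5.55, 3.64 and 1.98 scaled CPM in snpc-1.2 at 48 h, against 1604, 2383 and 1893 in wild type, so hardly any was left. This is a log2 change of -8.91 ± 0.58 (edgeR adjusted p = 3.9e-25). 21ur-2235 had 97.5, 97.4 and 108 in snpc-1.2, against 2808, 3666 and 2820 in wild type, a log2 change of -4.94 ± 0.44 (edgeR adjusted p = 1.4e-17). 21ur-4976, in an intron of Y116A8C.40, had 859, 724 and 729 in snpc-1.2, against 1934, 2061 and 2259 in wild type, a log2 change of -1.44 ± 0.35 (edgeR adjusted p = 0.0003). That call was lost with both other scalings, by DESeq2 and without snpc-1.2 replicate 3, which gave -0.77 to -0.17. The piRNAs enriched at 72 h held 6.47% ± 0.583 of the region's counts in snpc-1.2 at 48 h, against 23.8% ± 4.13 in wild type, and those enriched at 48 h held 70.1% ± 0.678 against 53.5% ± 4.48 (exact permutation p = 0.1, n = 3 each, no overlap).

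In adults without snpc-1.2, the region's counts came mostly from piRNAs that wild type makes more of at 48 h. Those enriched at 48 h held 65.2% ± 1.1 of the region's counts in snpc-1.2 at 72 h, against 7.09% ± 1.32 in wild type, and those enriched at 72 h held 8.19% ± 0.537 against 73.0% ± 1.75 (SD, n = 3 each; exact permutation p = 0.1, the smallest possible, no overlap). Summed over the region, snpc-1.2 adults had 34633 counts on average, 22.9% of the wild-type mean of 151452. The piRNAs enriched at 72 h had 2.54% of their wild-type counts and those enriched at 48 h had 216%. These sums are raw counts, not scaled for library depth.

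By the edgeR test, 389 piRNAs of the region were higher and 741 lower in snpc-1.2 at 72 h, beside 66.1% of all piRNAs called (23% higher and 43.1% lower). This split depends on the scaling. It was 745 and 552 with DESeq2 size factors, 732 and 533 by DESeq2, and 798 and 531 with the sum of piRNA counts. Of all 8512 piRNAs the same runs called 3948 and 2708, 3897 and 2608, and 4251 and 2604. The sum moved the median of all piRNAs to 1.51 from the -0.42 under TMM. The region's median lay below that of all piRNAs by the same amount each way, at -0.70 under TMM and 1.24 with the sum. Of the 514 piRNAs enriched at 72 h, 509 fell (99.0%, against 86.3% of that class over all piRNAs), with a median of -7.00. Of the 717 enriched at 48 h, 378 rose (52.7%, against 52.5%), with a median of 1.33. Across the 1618 piRNAs the mutant's change and the wild-type age change of set B had a Pearson r of -0.88.

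21ur-119 had 2.74, 8.86 and 1.67 scaled CPM in snpc-1.2 at 72 h, against 6228, 6433 and 5099 in wild type; the mutant libraries held 1, 3 and 1 counts. Its log2 change was -10.47 ± 0.66 (edgeR adjusted p = 1.8e-26). 21ur-2235 had 82.3, 70.9 and 77.0 in snpc-1.2, against 14849, 15140 and 17159 in wild type, a log2 change of -7.67 ± 0.51 (edgeR adjusted p = 3.7e-25). 21ur-5410, 21ur-4532, 21ur-2290 and 21ur-2721 changed by -8.93, -10.24, -6.20 and -3.01 on the log2 scale. Of the L4 piRNAs, 21ur-5880 had 735, 582 and 887 in snpc-1.2 adults, against 177, 167 and 319 in wild-type adults, with no overlap. Its log2 change was 1.74 ± 0.33 (edgeR adjusted p = 2.2e-06). Under TMM its level was below the 1585 to 2404 of wild-type L4 larvae, but that gap depends on the scaling. In raw counts it had 268, 197 and 530 of 154481, 132848 and 275171 piRNA counts in snpc-1.2 adults. Wild-type L4 larvae had 1917, 1612 and 1893 of 1051183, 1168689 and 991218, so as shares of piRNA counts these groups overlapped. 21ur-1660 had 1245, 880 and 1276 in snpc-1.2, against 425, 282 and 600 in wild type, a log2 change of 1.38 ± 0.33 (edgeR adjusted p = 0.00017). 21ur-4621 and 21ur-290 rose by 1.91 and 1.87, and 21ur-7073 and 21ur-7645 by 1.19 and 1.62. The log2 changes of these single piRNAs are under TMM, and their size depends on the settings. Over the alternative runs 21ur-4621 ranged from 1.68 to 3.88, 21ur-7073 from 0.98 to 3.15 and 21ur-2721 from -3.20 to -1.01. The effect of snpc-1.2 loss differed between the ages for 595 piRNAs of the region (edgeR adjusted p below 0.05, beside 31% of all piRNAs), with 412 positive and 183 negative, beside 22.1% and 8.86% of all piRNAs. With DESeq2 size factors these were 492 and 123, beside 2323 and 475 of all 8512 piRNAs. With the sum they were 644 and 72, beside 3157 and 291.

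**Figure D3:**
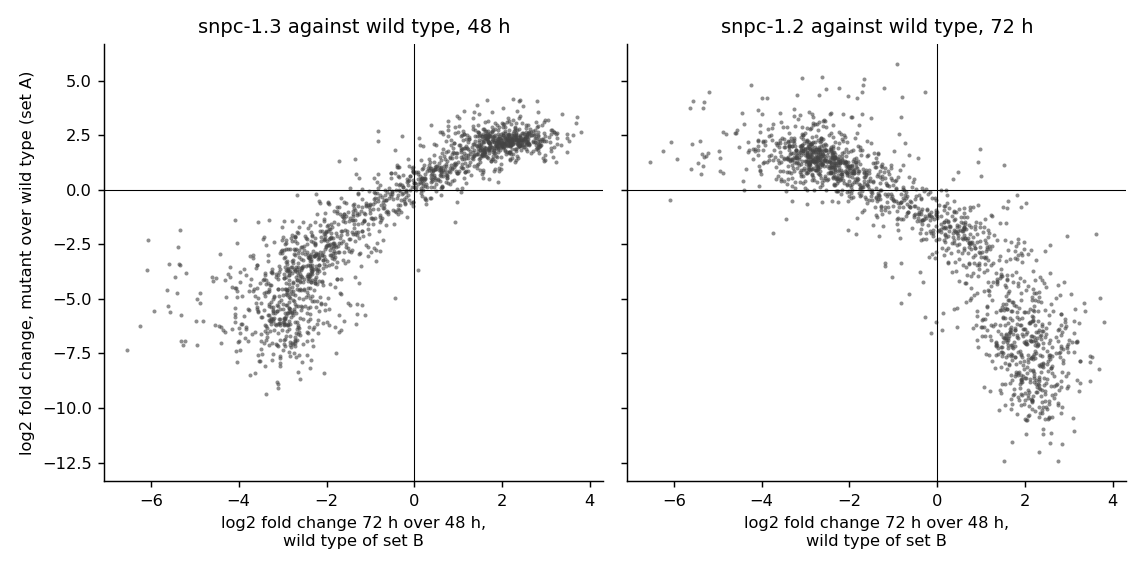
Log2 change of each tested piRNA of the region in snpc-1.3 and in snpc-1.2 over wild type (vertical axes) against its log2 change with age in wild type of set B, 72 h over 48 h (horizontal axes); each point is a piRNA. The points rise along the age change in snpc-1.3 at 48 h (r = 0.91) and fall along it in snpc-1.2 at 72 h (r = -0.88).

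**Figure D4:**
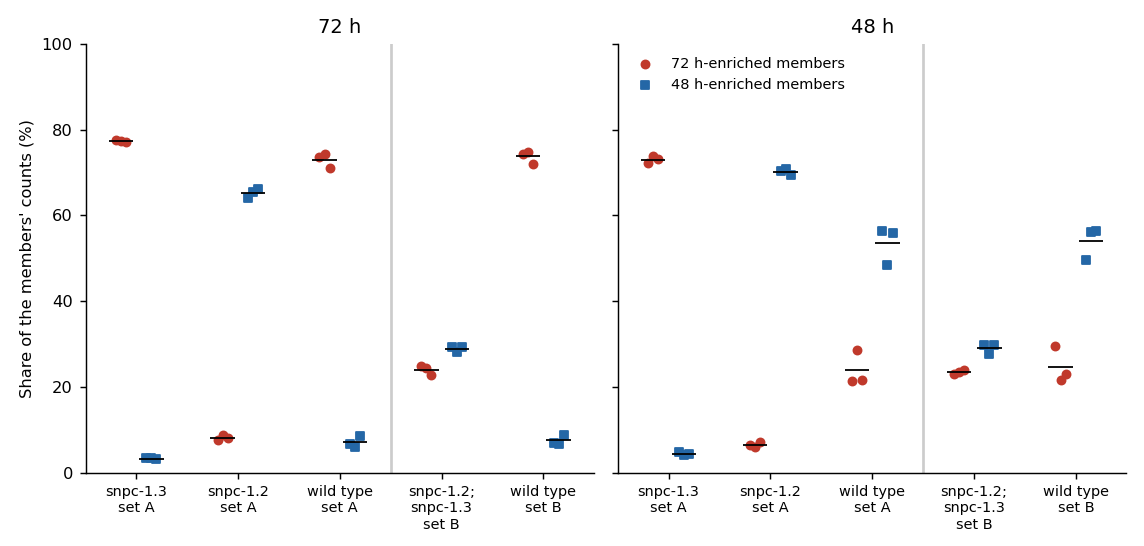
Share of the region's counts (percent, vertical axis) held by piRNAs enriched at 48 h or at 72 h in wild type of another set, by genotype and age; points are libraries and bars their mean. Those enriched at 48 h hold 65.2% in snpc-1.2 adults and 7.09% in wild-type adults of the same set.

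**Figure D5:**
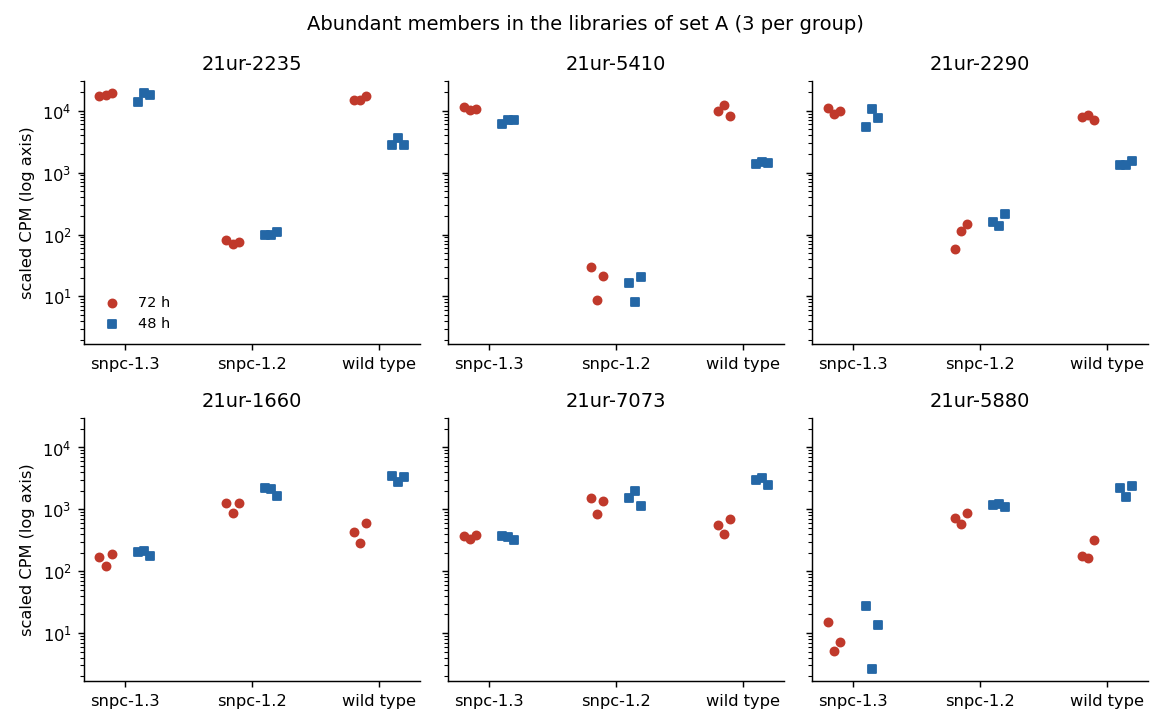
Scaled CPM (log axis) of named piRNAs of the region in each library of set A by genotype and age; points are libraries. 21ur-2235 lies between 70.9 and 108 in all 6 snpc-1.2 libraries, and 21ur-5880 between 2.64 and 27.3 in all 6 snpc-1.3 libraries.

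The double mutant snpc-1.2; snpc-1.3 kept few counts of the region at either age. At 48 h its libraries held 2392 ± 726 counts of the region, where wild type of set B held 190485 ± 14026, which makes 1.26%. At 72 h they held 2878 ± 585 and wild type held 169314 ± 27055, which makes 1.70% (SD, n = 3 each). These are raw counts, not scaled for library depth, so they do not give the amount left in the animals. Of the 2663 piRNAs, 488 and 519 on average had any count at the 2 ages. By edgeR, 8 were higher and 927 lower at 48 h, beside 58.1% of all piRNAs called (10.6% higher and 47.5% lower). At 72 h, 9 were higher and 706 lower, beside 47.6% called (7.88% higher and 39.7% lower). Scaled by the sum of piRNA counts, these were 43 and 442 at 48 h, beside 1061 and 1743 of all 8512 piRNAs. At 72 h that scaling gave 132 and 304, beside 1466 and 1397. DESeq2 size factors gave 58 and 389 at 72 h, beside 1076 and 1842. Without replicate 2 of the mutant, 602 were called at 48 h, beside 3382 of all piRNAs. With so few counts in the mutant, raw counts are given for single piRNAs. 21ur-2235 had 13, 7 and 16 counts in the double mutant at 48 h, against 3180, 1700 and 2310 in wild type, and 15, 14 and 20 at 72 h, against 6676, 9820 and 9554. 21ur-1660 had 10, 9 and 14 at 48 h, against 1897, 1968 and 2187.

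What remained in the double mutant had similar class shares at both ages. The classes were taken from wild type of set A, where 740 of the region's piRNAs were enriched at 48 h and 525 at 72 h, beside 38.8% and 35.7% of all piRNAs. Those enriched at 48 h held 29.0% ± 1.28 of the region's counts at 48 h and 28.9% ± 0.695 at 72 h in the double mutant, against 54.1% ± 3.90 and 7.51% ± 1.12 in wild type. Those enriched at 72 h held 23.5% ± 0.534 and 24.0% ± 1.09, against 24.7% ± 4.19 and 73.8% ± 1.59 (SD, n = 3 each). The groups overlapped only in the share of piRNAs enriched at 72 h in the 48 h libraries (exact permutation p = 0.9), where the difference of -1.22 points became 1.17 without wild-type replicate 1. In the other 3 comparisons the exact p was 0.1. A few piRNAs kept a larger part of their counts. 21ur-3024, in an intron of sta-1 and beginning with G, had 111, 43 and 138 counts in the double mutant at 48 h, against 410, 269 and 325 in wild type, and 68, 166 and 170 at 72 h, against 300, 410 and 248. Relative to other piRNAs it was higher (log2 1.96 ± 0.46, edgeR adjusted p = 0.00029 at 48 h), while its raw counts were lower in all 6 mutant libraries. 21ur-3246 had 11, 34 and 14 counts at 72 h, against 73, 77 and 46 in wild type, and was likewise higher relative to other piRNAs (log2 1.05 ± 0.34, edgeR adjusted p = 0.0079), a call lost without replicate 2 of the mutant.

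Almost nothing of the region was counted without prg-1. Its L4 libraries held 426 ± 210 counts of the region and its adult ones 456 ± 178 (SD, 3 libraries each). In raw counts, not scaled for library depth, these are 0.224% and 0.269% of the wild-type means of set B. On average 244 and 259 of the 2663 piRNAs had a count. The piRNAs with most counts left were those abundant in wild type. 21ur-2235 had 11, 6 and 13 counts in prg-1 at 48 h and 6, 8 and 20 at 72 h. 21ur-2290 had 11, 4 and 9 at 48 h and 6, 9 and 12 at 72 h, and 21ur-5410 had 8, 3 and 8 at 48 h and 3, 18 and 8 at 72 h. Single piRNAs were not tested in prg-1 because so few counts were left.

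Loss of mut-16 or of hrde-1 left nearly all piRNAs of the region uncalled. In mut-16, 2 were higher and 1 lower at 48 h (edgeR adjusted p below 0.05), beside 4.21% of all piRNAs called (0.435% higher and 3.77% lower). At 72 h, 5 were higher and 2 lower, beside 7.84% called (1.02% higher and 6.81% lower). That split moved with the settings, to 2 higher and 2 lower with DESeq2 size factors, 2 and 3 with the sum of piRNA counts, 2 and 8 without the filter on low counts, and 3 and 1 by DESeq2. At an unadjusted p below 0.05 there were 63 and 67 of the 1618 tested, fewer than such a cutoff passes when nothing differs. The count over all piRNAs at that cutoff was not taken. Same-numbered libraries deviated together at 48 h, and the fit with the replicate number as a block called 5 there. The counts moved with single libraries. At 48 h, 1 was called without mut-16 replicate 1 or without wild-type replicate 2, and 5 without wild-type replicate 1. At 72 h, 3 were called without wild-type replicate 1, 4 without mut-16 replicate 1 or wild-type replicate 3, and 10 without mut-16 replicate 3. 21ur-13680, in an exon of nhr-229 on the opposite strand and beginning with G, had 3, 1 and 24 counts in mut-16 at 48 h, against 103, 64 and 53 in wild type, a log2 change of -3.27 ± 0.51 (edgeR adjusted p = 3.7e-05). At 72 h it had 0, 0 and 0 counts in mut-16, against 5, 7 and 18. 21ur-14953, in an exon of skr-13 on the strand of that gene, had 85, 86 and 62 counts in mut-16 at 72 h, against 2, 6 and 9 in wild type, a log2 change of 2.70 ± 0.52 (edgeR adjusted p = 8e-05). 21ur-5802 rose by 1.46 at 72 h on the log2 scale, and was not called without wild-type replicate 3. 21ur-9210 rose by 1.70 at 48 h, but was not called with DESeq2 size factors, by DESeq2, or without mut-16 replicate 1, wild-type replicate 2 or wild-type replicate 3. The region as a whole held more counts in mut-16, with 391627 ± 112965 at 72 h, against 169314 ± 27055 in wild type, as did these libraries' piRNAs altogether.

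In hrde-1 at 72 h, 1 piRNA was higher and 1 lower by edgeR, beside 1.41% of all piRNAs called (0.364% higher and 1.05% lower). At an unadjusted p below 0.05 there were 78 of the 1618 tested, fewer than such a cutoff passes when nothing differs. Neither of the 2 calls was made without hrde-1 replicate 2. 21ur-14953 had 12, 47 and 21 counts in hrde-1, against 2, 6 and 9 in wild type, a log2 change of 2.08 ± 0.55 (edgeR adjusted p = 0.024). 21ur-7530 had 90, 33 and 66 counts, against 290, 353 and 224, a log2 change of -2.12 ± 0.45 (edgeR adjusted p = 0.0057). Without wild-type replicate 1 or replicate 2, only 1 was called, and it was lower, so the call of 21ur-14953 was lost. DESeq2 also called 0 higher and 1 lower at this age. At 48 h edgeR called 0 piRNAs of the region in hrde-1, beside 0.811% of all piRNAs. There 25 had an unadjusted p below 0.05, again fewer than that cutoff passes when nothing differs. DESeq2 and the fit with the replicate number as a block each called 1.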

How the data were processed

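Per the labels' protocols, total RNA of whole animals was treated with RNA 5′ polyphosphatase before small RNA libraries were made. The submitters' processing notes name Trimmomatic 0.39, Bowtie 1.1.1, HTSeq, edgeR and build WBcel235, without their settings. The authors deposited raw counts per piRNA, used here for all tests, and a table of batch-corrected log2 CPM, per the file headers, used here for coordinates and sequences only. The file headers mark 1 wild-type column (set B, 72 h, replicate 3) as resequenced. The tables hold 12 columns that match no sample and were not used, and 12 mutant samples of set C were not analysed here. For some double-mutant samples of set C, the description conflicts with the title.

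Counts of 54 libraries in 18 groups were fitted together with edgeR 4.0.16 in R 4.3.3 (TMM, filterByExpr with minimum count 10 and minimum total 15, robust quasi-likelihood test, Benjamini-Hochberg over 8512 piRNAs, called at an adjusted p below 0.05). The script was tested on simulated data. Printed log2 changes are edgeR's shrunken values, and each SE is the unshrunken change divided by the square root of F. DESeq2 1.42.0 was an alternative test. Shares were compared by exact two-sided permutation tests. Intervals cover counting error only, since reads carry no molecular identifiers. Scaled CPM are CPM of piRNA counts with TMM-scaled library sizes, and the piRNA total of a column is not the depth of its library.

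Same-numbered libraries deviated together (every r above 0.1 between deviations from the group means) for snpc-1.2, mut-16 and hrde-1 at 48 h and in wild type of set C across ages, so blocked counts stand beside these mutants where they change a call or move a count by over 1.5 times, and beside snpc-1.2. The labels do not say what the numbers mark.

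The named piRNAs are the most abundant of those called, changed at least 2-fold and without overlap between groups of one set: up to 6 in each direction for wild type across ages, snpc-1.3 at 48 h and snpc-1.2 at 72 h, and up to 2 for other mutant comparisons. The 6 most abundant in wild type of sets A and B, the 3 with most counts in prg-1 and members of small counts of calls were added. The region, the classes and these rules were chosen with earlier results of these data known. A planned search for upstream motifs needs a genome and was not analysed here. The overlap of piRNAs with genes was read from the WBcel235 annotation, and 2661 of the 2663 coordinates equal it.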

Additional observations from a re-analysis of the deposited data

Results flagged for a closer look

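The lowest wild-type library at 72 h, replicate 3 of set C, drew 10.7% of its piRNA counts from the region and lay far from the other 8. Replicate 2 of set C was far above the other wild-type libraries in 21ur-2332, at 2953 scaled CPM at 72 h and 8354 at 48 h, and in 21ur-815, at 6814 scaled CPM at 48 h. The other libraries of set C lay above sets A and B in part as well: 21ur-2332 had 3034 and 4565 scaled CPM in them at 48 h, against 874 to 1142 in sets A and B, and 21ur-815 had 2766 and 4046, against 1435 to 3033. Replicate 1 of set C at 48 h was far above the others in 21ur-5602, at 82.9 scaled CPM. In all, 24 sets of wild-type values were examined in this way, so some may have been marked by chance alone. What sets these libraries apart was not tested.

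The effect of snpc-1.3 loss differed between the ages in the edgeR test of the difference itself, given here as the log2 effect at 72 h minus that at 48 h. It was negative for 21ur-2235 (-2.23), 21ur-2290 (-2.16), 21ur-5410 (-2.15), 21ur-4532 (-1.97) and 21ur-2721 (-1.40), which rose at 48 h. It was positive for 21ur-1660 (2.56), 21ur-5880 (2.55), 21ur-7073 (2.46), 21ur-52 (2.39), 21ur-815 (1.76) and 21ur-10383 (1.62), which fell at 48 h. All of these but 21ur-10383 were named for their calls at 48 h. That effect enters the difference, so the choice itself favours these signs. The effect of snpc-1.2 loss also differed between the ages. It was more negative at 72 h for 21ur-2290 (-3.16), 21ur-2235 (-2.74), 21ur-5410 (-2.39), 21ur-2721 (-1.76) and 21ur-4976 (-1.64 by the log2 difference of effects). It was more positive at 72 h for 21ur-290 (2.82), 21ur-5880 (2.60), 21ur-4621 (2.52), 21ur-7645 (2.25), 21ur-7073 (2.09) and 21ur-1660 (2.05). These piRNAs were likewise named for calls that enter the difference. The values are under TMM and their size depends on the scaling. For snpc-1.2 the median difference of all piRNAs was 0.31 under TMM, 0.82 with DESeq2 size factors and 1.35 with the sum of piRNA counts. For snpc-1.3 it was -0.28, 0.31 and 0.10.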

How the results depend on the processing

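Of the numbers recomputed, the counts of calls for wild type across ages, snpc-1.3 at 48 h, snpc-1.2 at 72 h and both differences between ages stayed within 1.5 times under every alternative run: other scalings, no filter, DESeq2, a replicate block and leaving out single libraries. Each of 48 libraries was left out in turn, only for the comparisons it enters. The library that stood apart was thus kept in every mutant test, where it enters the shared estimate of the spread. Its part there was not tested. The count for snpc-1.2 at 48 h was 468 with the sum of piRNA counts and 492 by DESeq2, and ranged from 457 to 775 with 1 library left out. For the double mutant it was 485 with the sum and 610 by DESeq2 at 48 h (602 to 932 with 1 library left out), and 436 with the sum, 447 with DESeq2 size factors and 434 by DESeq2 at 72 h. Leaving out 1 library gave 112 to 179 for snpc-1.3 at 72 h, 1 to 5 and 3 to 10 for mut-16 at 48 h and 72 h, and 0 to 3 for hrde-1 at 72 h. mut-16 had 1 with DESeq2 size factors and 1 by DESeq2 at 48 h, and 4 with each at 72 h. hrde-1 at 48 h had 1 with either other scaling, without the filter and by DESeq2, and at 72 h 1 by DESeq2. The replicate block gave 5 for mut-16 at 48 h, and 1 and 4 for hrde-1 at 48 h and 72 h, and moved no other count of calls by over 1.5 times. The numbers do not pair the hrde-1 samples at 72 h by the check used.

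The wild-type region share differed by -2.73 to -0.965 points with 1 library left out. It was -2.13 and -2.11 without replicate 1 or 3 of set C at 48 h, where the exact permutation p passed 0.05. The share of piRNAs enriched at 72 h in the double mutant at 48 h turned to 1.17 points without wild-type replicate 1 and ranged from -2.75 to 1.17. For named piRNAs, 724 recomputed values kept their side of the threshold and 56 lost it, mostly in mut-16. The causes were not tested. The few counts of prg-1 and the double mutant limit what can be said of single piRNAs.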
